A study of Mus musculus with 12 samples.

Results

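H3K4me3, the trimethylation of histone H3 at lysine 4 that marks active promoters, was examined at 10 imprinted genes in the nuclei of heart muscle cells (cardiomyocytes, CMs) of adult mice. The genes were Peg3, Mest, Snrpn, Plagl1, Grb10, Peg10, Igf2r, Meg3, Gnas and Impact, and every peak that carries one of these names in the table of peaks was taken, whatever its value. The rule found 6 peaks among 15848, 1 each for Peg3, Plagl1, Grb10, Peg10, Igf2r and Impact. No peak carried the name of Snrpn or Gnas, although a peak lay at each of these loci under another name or none, and Mest and Meg3 were not analysed here.

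The study asked how chromatin changes when CMs lose Cpt1b, a carnitine palmitoyltransferase that long-chain fatty acids need to enter the mitochondria of muscle. ChIP–seq libraries for H3K4me3 came from 3 control samples (labelled CtrlCre) and 3 mutant samples (labelled Cpt1bcKO). Both genotypes carried the αMHC-Cre transgene, whose promoter is active in CMs, so the controls share any effect of Cre. In the mutants, both Cpt1b alleles had loxP sites around exons that Cre removes in CMs only, and other heart cells kept the gene. The mice were of C57BL/6 background and adult, with the age of the ChIP mice not given in the sources used here, and nuclei were sorted before chromatin was prepared. The study's methods speak of biological replicates for in vivo work, but the labels do not tie each library to a separate mouse, so p-values measure the spread between these samples, which may in part be technical.

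Recovered counts in peaks ranged from 763133 in CtrlCre replicate 2 to 2766416 in Cpt1bcKO replicate 2. The log2 values of all peaks correlated between 0.91 and 0.97 for each pair of libraries. All 12 of 12 CM marker genes carried a peak, against 1 of 9 for fibroblasts (Pdgfra) and 1 of 7 for endothelial cells (Kdr). It was 3 of 5 for mural cells (Myh11, Cspg4 and Kcnj8) and 0 of 5 for immune cells. Taking the strongest peak of each marker, the median density was 65.4 normalized counts per kb for CMs. It was 16.5 for fibroblasts, 16.7 for endothelial cells and 25.1 for mural cells. The summed normalized count of the CM markers lay between 8835 and 10747 in the controls and between 6340 and 9386 in the mutants, with the lowest value in Cpt1bcKO replicate 3, and its part in the values given here was not tested. Summed values of the other lists ranged in controls and mutants, in this order, from 58 to 69 and 56 to 63 for fibroblasts, from 39 to 91 and 31 to 51 for endothelial cells, and from 92 to 142 and 42 to 98 for mural cells. The peak of Cpt1b itself was higher in the mutants (log2 difference 0.52, SE 0.10, limma adjusted p = 0.00357), but in the transcript Cpt1b-201 this peak does not reach exons 10 and 11, the loxP-flanked exons, and so does not check the deletion.

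Imprinted genes are expressed from the maternal or the paternal copy only, or mainly so. Many of them are governed by a stretch of DNA that is methylated in the egg or the sperm and keeps this methylation on the copy from that parent, while H3K4me3 lies on the other copy, since DNA methylation and H3K4me3 tend to exclude each other. The zinc-finger protein ZFP57 reads the hexamer TGCCGC when its CpG is methylated and protects the methylation of such regions after fertilization. Of the genes with a peak, Peg3, Plagl1, Peg10 and Impact are known as paternally expressed, and Igf2r and Grb10 as maternally expressed in most tissues. In inbred mice the reads of the parental copies cannot be told apart, so each value below sums both copies.

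Some of the peaks held stretches in which TGCCGC recurred. The choice of genes by name did not use this feature, but the peaks shown here were picked for their high density of it. For the Peg3 and Plagl1 peaks, and for the peaks at the starts of Snrpn and Airn described below, the stretch of 200 bases outside annotated exons with the most matches is given 5′ to 3′ along the strand of the gene, with TGCCGC and its reverse complement in capitals. All were read from the RefSeq sequence of GRCm38.p6, the same build as the mm10 of the peaks. The stretches lie at chr7:6730016-6730215 (minus strand) in Peg3, chr10:13091061-13091260 (plus strand) in Plagl1, chr7:60004342-60004541 (minus strand) in Snrpn and chr17:12742189-12742388 (plus strand) in Airn, all in introns.
Peg3: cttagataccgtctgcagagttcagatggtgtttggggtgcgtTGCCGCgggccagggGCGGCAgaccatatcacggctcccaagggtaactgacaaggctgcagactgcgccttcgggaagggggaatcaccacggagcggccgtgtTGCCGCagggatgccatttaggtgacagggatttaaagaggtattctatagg
Plagl1: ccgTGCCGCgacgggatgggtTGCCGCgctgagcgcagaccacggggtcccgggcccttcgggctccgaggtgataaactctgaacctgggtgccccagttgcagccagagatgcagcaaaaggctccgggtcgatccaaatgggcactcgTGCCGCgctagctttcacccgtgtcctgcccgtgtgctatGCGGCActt
Snrpn: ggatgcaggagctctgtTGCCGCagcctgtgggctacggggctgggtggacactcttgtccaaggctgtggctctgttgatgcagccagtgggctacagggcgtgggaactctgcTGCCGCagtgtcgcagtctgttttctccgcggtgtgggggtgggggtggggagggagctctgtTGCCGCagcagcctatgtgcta
Airn: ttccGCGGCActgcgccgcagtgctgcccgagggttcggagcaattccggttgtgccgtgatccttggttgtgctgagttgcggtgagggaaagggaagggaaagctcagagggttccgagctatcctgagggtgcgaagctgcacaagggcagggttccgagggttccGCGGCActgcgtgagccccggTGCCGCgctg
The Plagl1 stretch held 4 matches and 19 CpG dinucleotides. The others held 3 matches each, with 12 CpGs in Peg3, 8 in Snrpn and 18 in Airn. Peaks were picked for their density and stretches for their matches, so these match counts restate that choice.

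The promoters of the maternally expressed Grb10 and Igf2r are shown because they are rich in CpG. Their windows were set by position and not by a search for TGCCGC, so they are no counterpart to the stretches above. The promoters themselves were picked for their CpG, so the CpG counts below restate that choice. The 250 bases before the RefSeq start are given on the minus strand, with each CpG in capitals, from chr11:12037421-12037670 for Grb10 and chr17:12769707-12769956 for Igf2r.
Grb10: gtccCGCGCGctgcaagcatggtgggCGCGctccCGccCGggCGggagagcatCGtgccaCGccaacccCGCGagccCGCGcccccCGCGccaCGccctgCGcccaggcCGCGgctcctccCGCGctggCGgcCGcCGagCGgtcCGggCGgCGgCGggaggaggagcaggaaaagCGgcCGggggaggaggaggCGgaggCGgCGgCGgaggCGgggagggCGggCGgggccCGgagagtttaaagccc
Igf2r: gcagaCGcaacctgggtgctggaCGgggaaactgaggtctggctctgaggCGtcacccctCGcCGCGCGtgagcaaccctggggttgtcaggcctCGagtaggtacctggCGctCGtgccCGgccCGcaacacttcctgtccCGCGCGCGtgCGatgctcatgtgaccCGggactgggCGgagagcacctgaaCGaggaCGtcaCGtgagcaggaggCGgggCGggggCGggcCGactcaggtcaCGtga
The Grb10 promoter held 40 CpGs and the Igf2r promoter 27, against a median of 6 in the 250 bases before the start over 32851 RefSeq promoters. Over the whole peak, CpG density was 6.68 per 100 bases for Grb10 and 3.79 for Igf2r, against a median of 4.86 over tested peaks. Neither held TGCCGC, which was present on either strand in 8.68% of those promoters, while the Grb10 peak as a whole held 5 matches. The matching stretches before the starts of Peg3 and Plagl1 overlap annotated exons and are given by count only, with 8 CpGs and no TGCCGC for Peg3, and 19 CpGs and 1 TGCCGC for Plagl1. Peg10 had no entry in the promoter table.

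Of the 6 named peaks, 5 were wide and thinly covered. The peaks of Peg3, Grb10, Peg10, Igf2r and Impact were between 2830 and 3722 bases wide, each above the third quartile of the 15039 tested peaks (2222 bases), and each held fewer normalized counts per kb than the first quartile (35.1 per kb). Among all tested peaks, 677 or 4.50% were in both of these classes. The Plagl1 peak, of 1441 bases, was the exception. No test was made of this, because the quartiles were set beside the peaks after their values had been seen.

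Plagl1, a zinc-finger transcription factor, had the densest peak with 50.3 normalized counts per kb, still below the median of 60.5 over tested peaks. Impact, a regulator of the GCN2 kinase that controls translation under amino acid shortage, followed with 34.6. Peg3, a zinc-finger protein, had 30.5, Igf2r, the receptor that clears insulin-like growth factor 2, had 26.02, and Grb10, an adaptor that dampens insulin receptor signalling, had 21.7. Peg10, which derives from a retrotransposon and is required for the placenta, had the thinnest peak with 17.3 normalized counts per kb, a density below which only 4.17% of tested peaks lay. Because values rose with width across all tested peaks (Spearman rho 0.77 over 15039 peaks, which share the same 6 libraries), the totals are given beside the densities, and they were 60.5 to 102.5 normalized counts per peak against a median of 101.8.

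**Figure D1:**
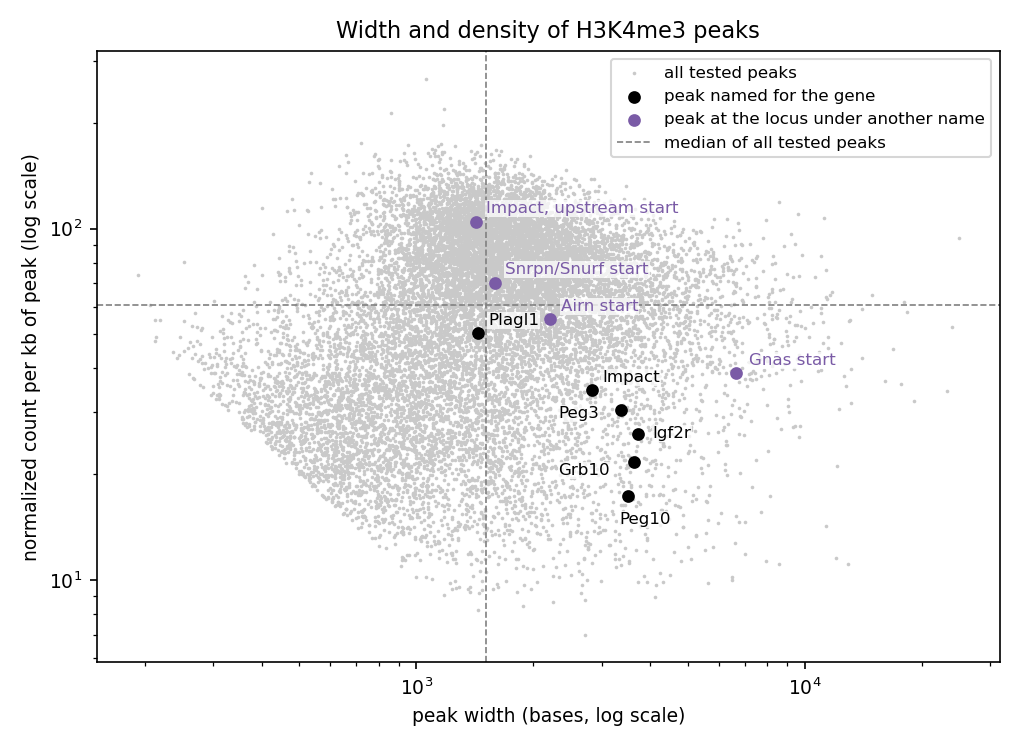
Width of each peak in bases (x, log scale) against its mean normalized count per kb over 6 libraries (y, log scale), with the 15039 tested peaks in grey, the 6 peaks named for an imprinted gene in black, 4 further peaks at the same loci in purple and the medians dashed. Peg3, Grb10, Peg10, Igf2r and Impact lie together at the lower right, between 2830 and 3722 bases and between 17.3 and 34.6 per kb.

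In all 6 named peaks more of the width lay on the transcribed side of the first start than before it. Distances were taken from the most upstream start that the peak covers on the strand of the gene, which favours the transcribed side. The share of all tested peaks with this layout was not computed, so whether it is particular to these peaks was not tested. In GENCODE vM21, the Peg3 peak (chr7:6727210-6730570) began 139 bases before the most upstream start it covers and ran 3221 bases into the gene, and introns made up 90.7% of it. The Igf2r peak (chr17:12766334-12770056) ran from 392 bases before to 3330 bases after the start, with 92.9% in introns. The Grb10 peak (chr11:12034380-12038003) ran from 602 bases before to 3021 bases after the start it covers, with 94.2% in introns. That start lies 1282 bases inside the annotated gene, whose first base is outside the peak. The deposited fraction of the peak within the gene body was 1.0 for Peg3 and 0.7 to 0.9 for the other named peaks, against a median of 0.7.

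At Peg10 and Plagl1 the peak was shared with other transcripts. The Peg10 peak (chr6:4746134-4749631) also covered starts of Sgce, an imprinted gene transcribed on the opposite strand, and its summit lay 112 bases from the nearest start and 355 bases before the first Peg10 start, on the Sgce side. Reads of Peg10 and Sgce can therefore not be separated. The Plagl1 peak (chr10:13090465-13091906) covered the starts of 23 annotated transcripts, most of them of Plagl1 and many at a shared position. Its summit lay 13 bases from the nearest start.

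**Figure D2:**
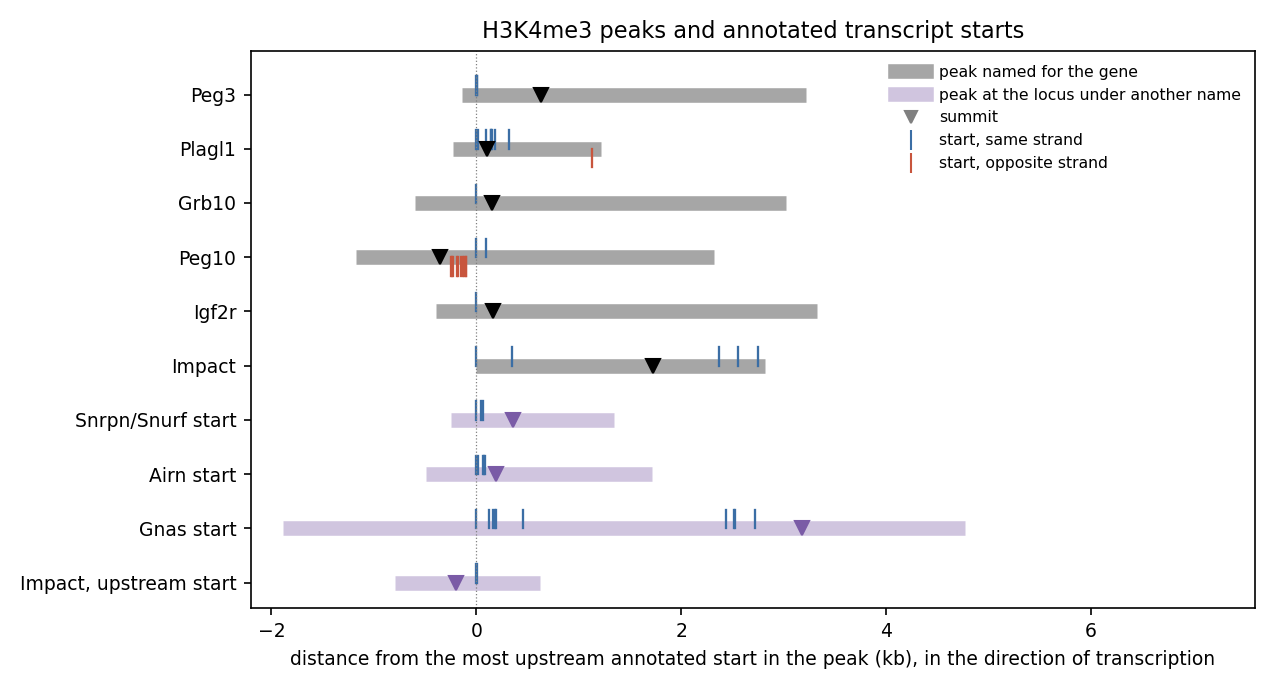
Extent of each peak (bar) along the distance in kb from the most upstream annotated start it covers (x), in the direction of transcription, with the summit as a triangle and starts on the same strand (blue) or the opposite strand (red). The Peg3, Grb10 and Igf2r peaks run 3221, 3021 and 3330 bases past the start, and the Airn bar is drawn along the strand of Airn.

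The base composition of the named peaks lay on both sides of the medians, and the density of TGCCGC lay above it in each. GC content was 52.6% to 56.6% against a median of 55.6%, and CpG density 3.51 to 6.68 per 100 bases against a median of 4.86, with 4 of 6 above the median in each case. TGCCGC matches on either strand numbered 8 in Peg3, 6 in Plagl1, 5 in Grb10, 5 in Impact, 3 in Peg10 and 2 in Igf2r. Expressed per kb of peak, the density ranged from 0.54 in Igf2r to 4.16 in Plagl1 and lay above the median of 0.37 in all 6. In Plagl1 it exceeded that of 99.5% of tested peaks and in Peg3 that of 96.5%, whereas in Igf2r it exceeded that of 57.6%. At least 1 match was found in 55.2% of tested peaks.

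CCCTC, part of the core sequence bound by the insulator protein CTCF, lay on both sides of its median. Its density in the named peaks ranged from 0.35 per kb in Impact to 5.36 in Peg3, above the median of 4.07 in 2 of 6, and 97.0% of tested peaks held a match. The octamer GCCATNTT, which contains the core read by the zinc-finger protein YY1, was searched on both strands after the values of the peaks were known. Peg3 held 12 matches or 3.57 per kb, a density that exceeded that of 99.96% of tested peaks, and the other 5 named peaks held none. Of all tested peaks, 25.4% had a match. Matches describe the letters in these windows, and binding was not measured here.

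**Figure D3:**
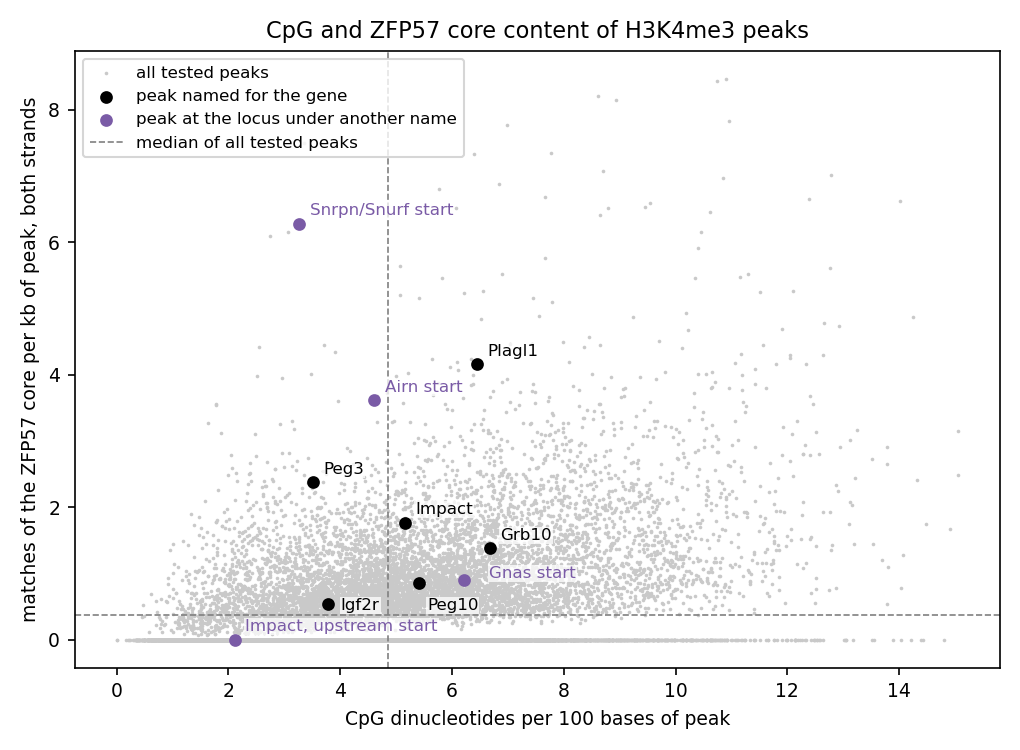
CpG dinucleotides per 100 bases of peak (x) against matches of the hexamer read by ZFP57 per kb of peak (y), for tested peaks (grey), peaks named for an imprinted gene (black) and further peaks at the same loci (purple), with medians dashed. The Snrpn start (6.28 per kb), Plagl1 (4.16) and the Airn start (3.62) lie high on the y axis, and Igf2r (0.54) sits in the bulk.

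The genotypes were then compared peak by peak with limma on log2(normalized count + 1), over all 15039 peaks with a mean of at least 10. None of the 6 named peaks passed an adjusted p of 0.05, against 2.93% of all tested peaks (1.11% higher and 1.82% lower in the mutants). At an unadjusted p of 0.05, the Peg3 peak alone passed in this fit, as lower, against 12.8% of tested peaks in either direction, 6.98% as lower and 5.84% as higher. In limma-voom on the recovered counts, 0 of 6 passed the adjusted threshold, against 3.29% of all tested peaks, and 1 of 6 the unadjusted threshold, against 13.7%. The values of the genotypes overlapped for all 6, and did not overlap for 16.3% of tested peaks. The median log2 difference of the named peaks was -0.095, against 0.0057 over all tested peaks. Differences lay below 0 in 5 of 6 named peaks and in 7337 of 15039 tested peaks. Those of Plagl1 (-0.039) and Peg10 (-0.015) were among the 5 and changed sign when single libraries were left out.

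Peg3 had the smallest p of the group in this fit, and the largest difference, although that of Grb10 was larger under limma-voom (-0.34 against -0.31) and without CtrlCre replicate 2 or Cpt1bcKO replicate 3. Normalized counts were 105, 109 and 130 in CtrlCre replicates 1 to 3 and 73, 111 and 87 in Cpt1bcKO replicates 1 to 3. Mutant replicates 1 and 3 lay under every control, while mutant replicate 2 lay above control replicates 1 and 2. The means were 114.7 ± 13.4 in controls and 90.3 ± 19.2 in mutants (SD, n = 3 each). The log2 difference was -0.36 (SE 0.15, 95% confidence interval -0.67 to -0.037), with a limma unadjusted p of 0.0304 and adjusted p of 0.310. Single libraries weighed on this value, which was -0.21 without Cpt1bcKO replicate 1 and -0.51 without Cpt1bcKO replicate 2, with limma adjusted p-values of 0.752 and 0.139. The unadjusted threshold was no longer passed without CtrlCre replicate 3 (limma unadjusted p = 0.146), without Cpt1bcKO replicate 1 (0.199), without Cpt1bcKO replicate 3 (0.0687) or without the trend (0.0879). A smaller share of marked copies per nucleus and a smaller share of nuclei with the mark cannot be told apart in such pooled nuclei.

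Plagl1, the densest peak, gave nearly equal values. Normalized counts were 79, 79 and 63 in CtrlCre replicates 1 to 3 and 73, 67 and 74 in Cpt1bcKO replicates 1 to 3. The mutant values all lay within the range of the controls. The log2 difference was -0.039 (SE 0.17, 95% confidence interval -0.38 to 0.30), with a limma adjusted p of 0.967.

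Peg10, the thinnest peak, also had overlapping groups. Normalized counts were 68, 46 and 69 in CtrlCre replicates 1 to 3 and 72, 51 and 57 in Cpt1bcKO replicates 1 to 3. Mutant replicate 1 lay above every control, and the others lay among the controls. The log2 difference of -0.015 had the broadest interval of the group, from -0.44 to 0.41 (SE 0.20, limma adjusted p = 0.992). A total of 20 counts lay behind the value of CtrlCre replicate 2, which had a counting error of 22.4%.

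Impact (chr18:12971917-12974747) was the only named peak with a positive difference. Its mean was 96.3 ± 21.2 in controls and 99.7 ± 22.9 in mutants (SD, n = 3 each), and the log2 difference was 0.044 (SE 0.18, 95% confidence interval -0.32 to 0.41, limma adjusted p = 0.965). With limma-voom on the recovered counts the difference was -0.044, so it had no stable sign.

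The maternally expressed genes lay between these. Grb10 had a mean of 85.7 ± 18.0 in controls and 71.3 ± 11.02 in mutants (SD, n = 3 each), with values from 67 to 103 and from 64 to 84. Its log2 difference was -0.25 (SE 0.18, 95% confidence interval -0.62 to 0.12, limma adjusted p = 0.621). It was -0.41 without CtrlCre replicate 2 and -0.11 without CtrlCre replicate 3, with limma adjusted p-values of 0.280 and 0.882. Without CtrlCre replicate 2 it passed the unadjusted threshold (limma unadjusted p = 0.0229). Igf2r had a mean of 102.3 ± 18.4 in controls and 91.3 ± 8.02 in mutants (SD, n = 3 each), with values from 82 to 118 and from 83 to 99. Its log2 difference was -0.15 (SE 0.15, 95% confidence interval -0.46 to 0.16, limma adjusted p = 0.768), and it was -0.30 without CtrlCre replicate 1 and -0.040 without CtrlCre replicate 3.

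**Figure D4:**
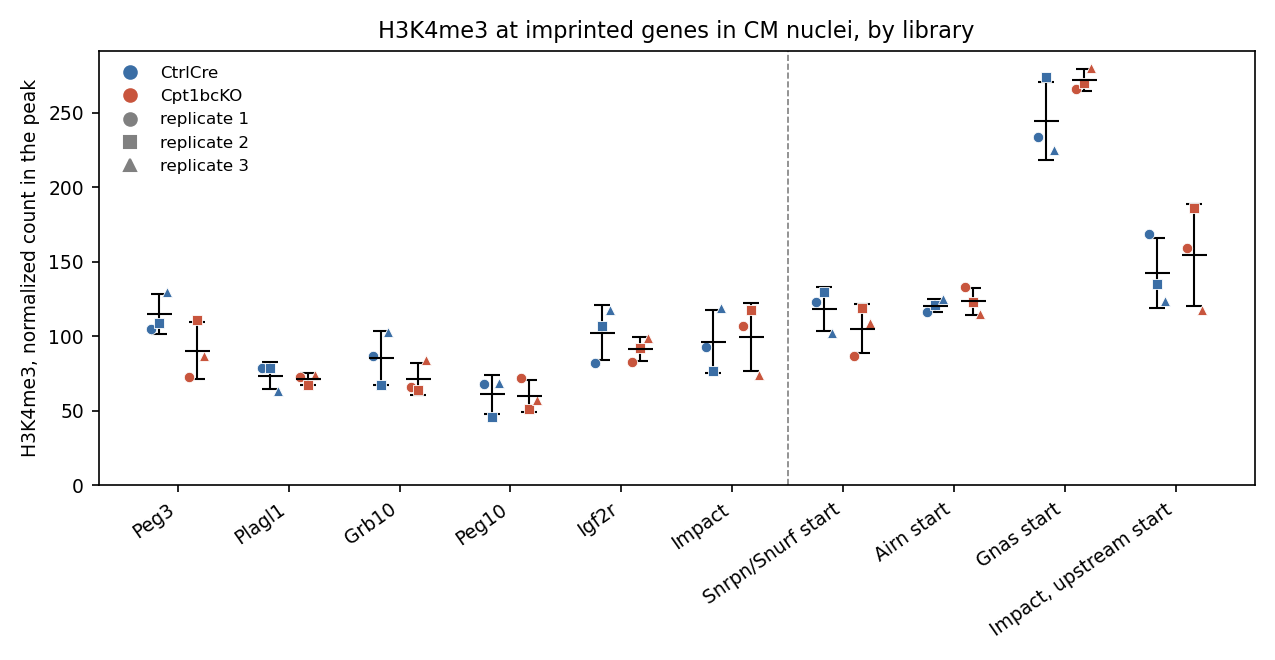
Normalized count of H3K4me3 in each peak (y) by library, for CtrlCre (blue) and Cpt1bcKO (red), with replicate numbers as symbols and the mean ± SD of 3 libraries in black, and with peaks at the loci under another name right of the dashed line. For Peg3, mutant values of 73 and 87 lie under all controls and 111 lies among them, and in no peak are the genotypes fully separated.

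Precision limited what could be called. The 6 named peaks held between 20 and 181 recovered counts per library, so counting error alone was 7.43% to 22.4% of a value. Given the standard error of each peak, a log2 difference of at least 0.55 (Igf2r) to 0.74 (Peg10) would have been needed for a call. The standard error includes the spread between libraries and exceeded the counting error at each of the 6 peaks.

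A further 4 peaks lay at the loci of the listed genes, inside the gene body or within 5000 bases of its start, but carried another name or none. They are described beside the named peaks and are not counted with them. With all 6 libraries, none passed an adjusted or unadjusted p of 0.05 in limma, against 2.93% and 12.8% of all tested peaks. None did in limma-voom, against 3.29% and 13.7%. All 4 had overlapping genotypes, as did all but 16.3% of tested peaks.

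At Igf2r the second peak marked the start of Airn, the antisense noncoding RNA that is transcribed from the paternal copy out of an Igf2r intron and silences Igf2r there. This peak (chr17:12740818-12743028) covered 5 starts of Airn, was 2210 bases wide and had 55.3 normalized counts per kb, against 26.02 per kb for the Igf2r promoter peak. It also held more TGCCGC, with 8 matches or 3.62 per kb against 0.54, and more CCCTC, with 11.3 per kb against 2.69. Normalized counts were 116, 121 and 125 in CtrlCre replicates 1 to 3 and 133, 123 and 115 in Cpt1bcKO replicates 1 to 3, so the genotypes overlapped. The log2 difference was 0.033 (SE 0.12, 95% confidence interval -0.22 to 0.28, limma adjusted p = 0.961).

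The balance of the Igf2r and Airn peaks, whose transcripts are known to come from opposite parental copies, does not depend on library scaling. The log2 ratio of Igf2r to Airn was -0.50, -0.18 and -0.082 in CtrlCre replicates 1 to 3 and -0.67, -0.42 and -0.21 in Cpt1bcKO replicates 1 to 3. The ratios overlapped, and the mean ratio was 0.18 lower in the mutants in log2 units (difference -0.18, exact two-sided permutation test p = 0.4, adjusted over 2 ratios p = 0.8). With 3 libraries against 3 this exact permutation test cannot go below p = 0.1. The ratio was chosen after the values of the peaks had been seen, as was that of the Impact peaks below.

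At Snrpn, which encodes a splicing protein and lies in the cluster tied to Prader–Willi syndrome in humans, the peak carried the name of Snurf, which shares its transcript with Snrpn. It lay at chr7:60003765-60005357 over starts of both genes. TGCCGC occurred 10 times in 1592 bases, or 6.28 per kb, a density that exceeded that of 99.8% of tested peaks, at a CpG density of 3.26 per 100 bases, under the median. Normalized counts were 123, 130 and 102 in CtrlCre replicates 1 to 3 and 87, 119 and 109 in Cpt1bcKO replicates 1 to 3. Only mutant replicate 1 lay under all controls, and the log2 difference was -0.18 (SE 0.14, 95% confidence interval -0.47 to 0.12, limma adjusted p = 0.689).

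At Gnas, which encodes the stimulatory G protein alpha subunit and has several imprinted first exons, an unnamed peak of 6655 bases (chr2:174325687-174332342) covered 10 annotated starts of the gene. Its mean was 244.3 ± 26.1 in controls and 272.0 ± 7.21 in mutants (SD, n = 3 each). It was the largest of the 10 peaks, with 118 to 416 recovered counts per library, and the smallest difference that would have been called was accordingly the lowest, at 0.36 on the log2 scale. The measured log2 difference was 0.16 (SE 0.10, 95% confidence interval -0.048 to 0.37, limma adjusted p = 0.560). Leaving out each library moved it between 0.10 and 0.24. Without CtrlCre replicate 2 it passed the unadjusted threshold (limma unadjusted p = 0.0232, adjusted p = 0.282). The limma-voom unadjusted p with all libraries was 0.0532. Starts that differ in imprinting fall within this peak and cannot be separated.

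At Impact an unnamed peak (chr18:12955058-12956479) lay over a more upstream start. It was narrower (1421 bases) and denser (104.5 normalized counts per kb) than the named Impact peak and held no TGCCGC, whereas the named peak held 5. Its log2 difference was 0.10 (SE 0.15, 95% confidence interval -0.20 to 0.40, limma adjusted p = 0.855). The log2 ratio of the named to the upstream peak averaged -0.57 ± 0.45 in controls and -0.63 ± 0.054 in mutants (SD, n = 3 each; exact two-sided permutation test p = 1). The sign of the difference in this ratio turned without CtrlCre replicate 3, to 0.20.

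A list of 75 other mouse genes that are imprinted in at least 1 tissue or lie in an imprinted cluster gave the wider background. Of these, 38 carried a peak by name, with 39 peaks in all, and 37 peaks passed the minimum mean. Their median width was 1554 bases and their median density 68.4 normalized counts per kb, against 1514 and 60.5 over all tested peaks, and 2 of 37 peaks (Sfmbt2 and Htr2a) were both wide and thinly covered by the quartiles used above. TGCCGC density lay above the median of all tested peaks in 22 of 37. It exceeded the 95th percentile, 2.11 per kb, in 5 (Snurf, Ascl2, Ampd3, Mcts2 and Casd1), as it did in 2 of the 6 named peaks, and these 5 genes were picked out after their values were seen. The Snurf peak is the one described at Snrpn.

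None of the 37 peaks passed an adjusted p of 0.05 in limma or in limma-voom, against 2.93% of all tested peaks. In limma 3 passed an unadjusted p of 0.05, 1 higher and 2 lower, and in limma-voom 4, against 12.8% and 13.7% of all tested peaks. The genotypes did not overlap in 5, of which 4 were lower and 1 was higher in the mutants, or a share close to the 16.3% over all tested peaks. The median log2 difference was -0.031, against 0.0057 over all tested peaks.

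The 6 genes with the smallest p-values in this list follow. Slc38a4, an amino acid transporter, had 109, 116 and 99 normalized counts in CtrlCre replicates 1 to 3 and 94, 84 and 82 in Cpt1bcKO replicates 1 to 3, and the groups did not overlap (log2 difference -0.31, SE 0.14, limma adjusted p = 0.319). Tssc4, which takes part in the assembly of spliceosomal particles, differed by 0.40 (SE 0.19, limma adjusted p = 0.362) and Bcl2l1, an inhibitor of cell death, by -0.22 (SE 0.10, limma adjusted p = 0.375). Asb4, part of a ubiquitin ligase, had 33, 30 and 35 normalized counts in CtrlCre replicates 1 to 3 and 25, 24 and 16 in Cpt1bcKO replicates 1 to 3, without overlap (log2 difference -0.59, SE 0.30, limma adjusted p = 0.420). Sfmbt2, a Polycomb protein, differed by 0.42 (SE 0.23, limma adjusted p = 0.460). Slc22a3, an organic cation transporter in the Igf2r cluster, had 77, 88 and 80 normalized counts in CtrlCre replicates 1 to 3 and 101, 90 and 101 in Cpt1bcKO replicates 1 to 3, without overlap (log2 difference 0.25, SE 0.14, limma adjusted p = 0.492).

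**Figure D5:**
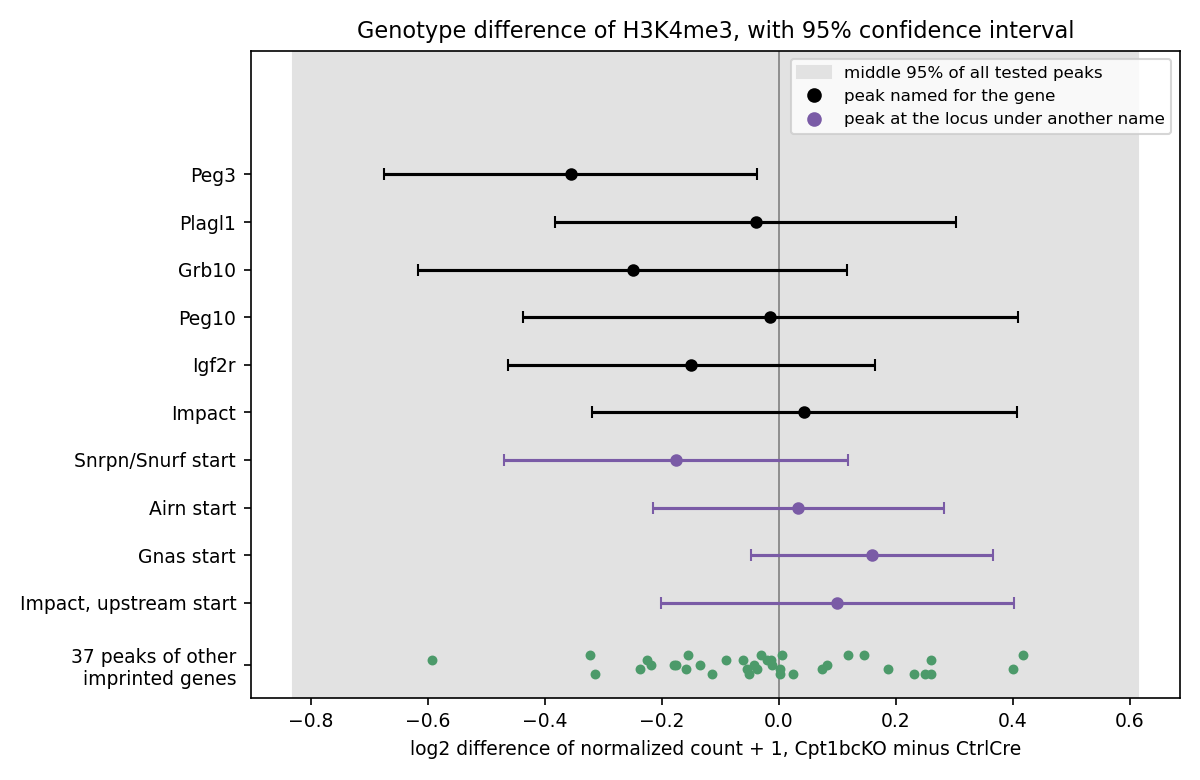
Log2 difference of normalized count + 1, mutant minus control, with 95% confidence intervals (x), for the 6 named peaks (black) and 4 further peaks at the loci (purple), above the point estimates of 37 peaks of other imprinted genes (green). The interval of Peg3 (-0.67 to -0.037) is the only 1 of these 10 that does not reach 0, and all 10 lie inside the shaded middle 95% of tested peaks (-0.83 to 0.61).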

How the data were processed

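The authors trimmed reads (Trimmomatic), aligned unique unspliced reads to mm10 (STAR), removed duplicates (Picard), called peaks against input (MUSIC), merged them into 15848 union peaks and normalized counts with DESeq2 size factors, which hide a shift shared by all peaks. The deposited library values are whole-number roundings of these normalized counts and were treated as a score. The deposited genotype means are unrounded signal values, and the deposited fraction gives the overlap with the gene body. The DESeq2 fold changes and p-values of the authors and the 6 input libraries were not used. Counts were recovered for 15848 of 15848 peaks from the rounded values and the means, for limma-voom and counting errors (counting error only).

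Samples were grouped by title. limma (version 3.58.1, R 4.3.3) with a trend was fitted on log2(value + 1) by genotype, two-sided, with Benjamini–Hochberg adjustment over 15039 peaks with a mean of at least 10, and was tested on simulated data. Adding 1 before the log understates changes of low peaks. Motifs were counted in GRCm38.p6 (Python 3.11.15, pysam 0.24.0). All 10 listed genes are named. Of the 6 named peaks, all values are given for those with an unadjusted p under 0.05 and for the densest and thinnest. A further 6 imprinted genes are named by smallest p, with all values for those whose genotypes do not overlap. This last choice, and full values for the Airn and Snrpn starts, were made after values were seen. Genes and lists were chosen with earlier results of these data known. Alternatives were other pseudocounts, filters and scalings, limma-voom, no trend, a replicate block and leaving out each library.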

Additional observations from a re-analysis of the deposited data

How the results depend on the processing

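The number of named imprinted peaks called stayed at 0 under each of the 15 alternatives. Without the trend, limma called 43 of all tested peaks in place of 441. Leaving out each library gave 229 to 431 calls over all peaks, with the lowest count without CtrlCre replicate 1. No call at the named peaks changed with the replicate block, which gave 370 calls over all peaks. Same-numbered libraries correlated at 0.076, -0.081 and 0.11 in their deviations from the genotype means. Libraries with different numbers were not compared in this way, and the labels do not say whether equal numbers mark paired samples, so pairing was not decided. The Peg10 difference changed sign under quantile normalization (0.022) and the Impact difference under limma-voom (-0.044), and the cause was not tested. Leaving out each library moved Plagl1 between -0.15 and 0.014, Peg10 between -0.20 and 0.093, Impact between -0.10 and 0.24, the Airn start between -0.020 and 0.084, and the upstream Impact peak between -0.046 and 0.28, all across 0. Peg3, Grb10, Igf2r and the Snrpn start stayed negative in all 15, and the Gnas start stayed positive. The median of the named peaks stayed between -0.16 and -0.074. The Igf2r to Airn ratio moved between -0.31 and -0.063 and the Impact ratio between -0.20 and 0.20 with a library left out. With sign flips over same-numbered libraries as a replicate block, the Igf2r to Airn difference of -0.18 had an exact p of 0.25, the smallest that 3 pairs allow. Ratios between peaks that share a member's name were not run, since no member carried more than 1. Depths of 20 to 181 counts per named peak and library limit these comparisons.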
